A study of Homo sapiens with 12 samples.

Results

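The double HIF knockdown was the condition in which RCC4 cells received HIF1A siRNA and HIF2A siRNA together. Its 3 libraries were chosen by their labels and set against the 3 libraries labelled control siRNA, so that 6 of the 12 bulk RNA-seq libraries of the series made up the comparison, paired by replicate number. RCC4 is an established line from a human clear cell renal carcinoma (ccRCC) without functional VHL, and it stands for 1 tumor. All cells were kept in ordinary incubator oxygen and harvested 48 h after transfection with 2 nM siRNA in total, as pools of many siRNAs against each gene. Control cells received 2 nM control siRNA, and cells of the double knockdown received 1 nM HIF1A siRNA and 1 nM HIF2A siRNA with no control siRNA. The remaining 6 libraries, used here for tests of the double knockdown against each single one, were 3 with 1 nM HIF1A siRNA and 1 nM control siRNA and 3 with 1 nM HIF2A siRNA and 1 nM control siRNA. An effect of the control siRNA itself and an effect of the HIF siRNAs beyond their targets cannot be told apart from the loss of HIF in this design. The study's methods call the replicates biological, and the labels do not say how they were separated, so the p-values measure the spread between these libraries.

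HIF-1 and HIF-2 are transcription factors made of an oxygen-regulated alpha subunit, HIF-1α (gene HIF1A) or HIF-2α (gene EPAS1, the target of HIF2A siRNA), and a shared beta subunit, ARNT. In oxygenated cells, prolyl hydroxylases of the EGLN family mark the alpha subunits and the VHL protein, part of a ubiquitin ligase, directs them to the proteasome. Without VHL, as in most ccRCC, both alpha subunits stay present in oxygen and bind hypoxia response elements, whose core is the motif ACGTG or GCGTG, near genes of glycolysis, angiogenesis, pH regulation and matrix remodelling. Knocking down both subunits in such cells lowers the input of a pathway that VHL loss leaves on.

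The deposited values were raw counts of fragments per gene symbol, and levels are given below as CPM (counts scaled to a common library total), scaled by edgeR's TMM factors. The 6 libraries held between 13263168 and 20451433 counts, and 13000 genes passed edgeR's filter on low counts. All 13 markers of renal epithelium and ccRCC were tested, and the renal transcription factor PAX8 (singled out after its values were seen) lay between 197 and 315 CPM in every library. Of the 13, 5 were lower in the double knockdown (CA9, EGLN3, NDUFA4L2, CP and KRT19) and 2 were higher (CDH6 and KRT18), against 3 and 1 without replicate 3 and 5 and 1 without replicate 1. Of 14 markers of fibroblasts, endothelium and leukocytes, 6 had no count in any of the 6 libraries, among them PECAM1, PTPRC and DCN, and none of the 5 that passed the filter was called. Their summed level was 70.6 to 97.7 CPM with control siRNA and 78.9 to 123 CPM in the double knockdown, most of it from COL1A1 and CD68 (markers singled out here after their values were seen). Functions of the mature proximal tubule were thinly represented, with 12 of 31 genes passing the filter and LRP2 and SLC34A1 among those that did not.

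The targeted genes were lower in every pair. HIF1A was at 120.2, 58.2 and 112 CPM with control siRNA and at 24.2, 32.2 and 29.7 CPM in the double knockdown, which left 20.5 to 55.7% of control within pairs, with 0.5 CPM added to each level (log2 fold change -1.73, standard error 0.21, edgeR adjusted p = 8.1e-05, by the quasi-likelihood test with Benjamini-Hochberg adjustment, as for every adjusted p below). EPAS1 was at 163, 138 and 171 CPM with control siRNA and at 8.54, 11.3 and 7.01 CPM in the double knockdown, or 4.38 to 8.49% of control (log2 fold change -4.15, standard error 0.19, edgeR adjusted p = 3.8e-09). The groups did not overlap for either gene, and the narrowest gap was in replicate 2, whose control library had the lowest HIF1A level of the 3. The double knockdown minus HIF1A siRNA alone gave a difference in HIF1A of 0.66 on the log2 scale that did not pass the test (edgeR adjusted p = 0.18), and minus HIF2A siRNA alone a difference in EPAS1 of -0.19 that did not pass it either (edgeR adjusted p = 0.62). The beta subunit ARNT, which no siRNA targeted, was at 36.5, 28.3 and 42.2 CPM with control siRNA and at 24.4, 21.6 and 31.8 CPM in the double knockdown (log2 fold change -0.46, standard error 0.12, edgeR adjusted p = 0.021), and its paralog ARNT2 was lower as well (log2 fold change -0.46, edgeR adjusted p = 0.035). For both, the 2 groups overlapped. Of 16 alternative fits, ARNT lost its call in 8 and ARNT2 in 9. Both lost it without replicate 1, without replicate 3 and with no replicate block.

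**Figure D1:**
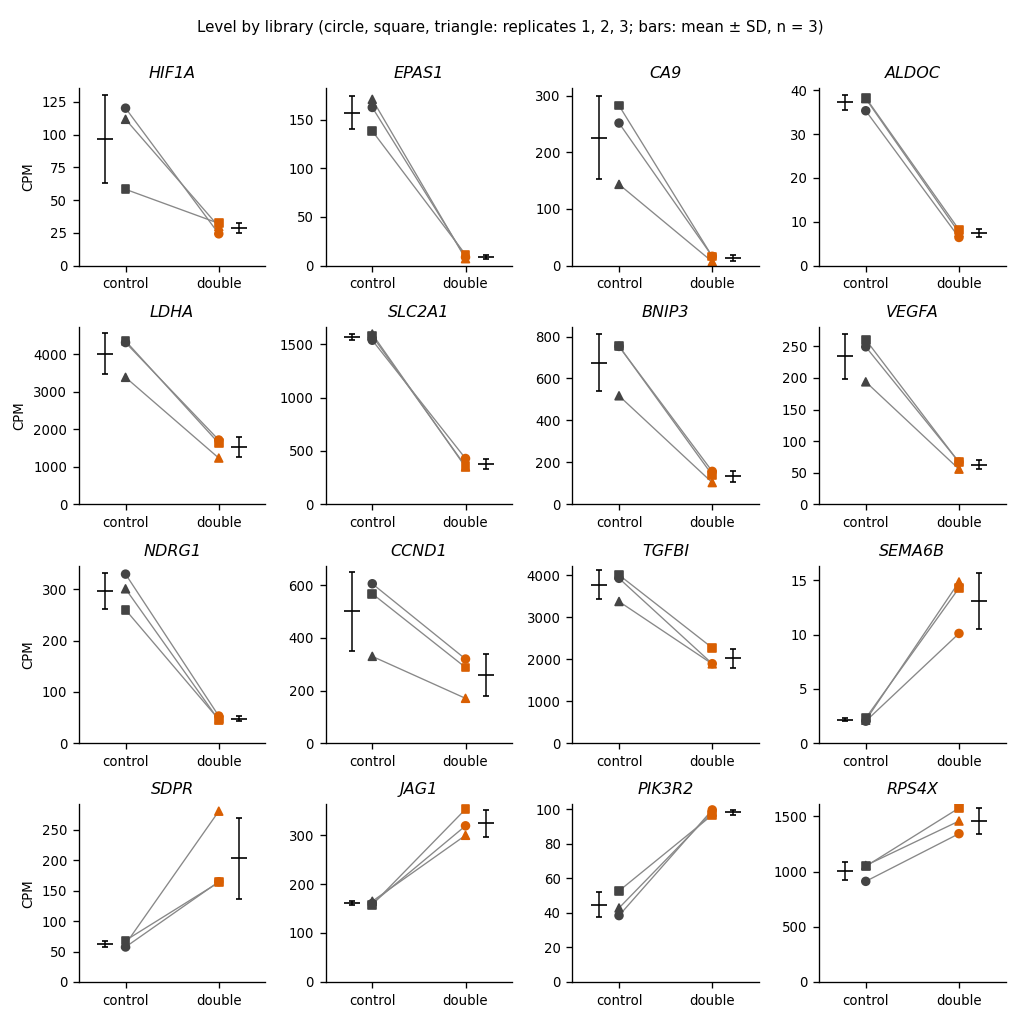
Levels in CPM (linear axes from 0) of 16 genes in the 3 control siRNA and 3 double knockdown libraries; lines join libraries with the same replicate number and bars give the mean ± SD (n = 3). From HIF1A to TGFBI every double knockdown library lies below its pair, and from SEMA6B to RPS4X every one lies above it.

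Both directions were populated, and the larger changes were mainly decreases. At an adjusted p under 0.05, 834 genes were lower (6.42% of the 13000 tested) and 502 were higher (3.86%), so that 37.6% of the 1336 calls (10.3% of genes) were increases. With a trend over GC content and gene length removed from each library, 948 genes were lower and 910 higher, and 49.0% of calls were increases. Decreases of 1 or more on the log2 scale numbered 239 and increases of that size 77. Decreases of 2 or more numbered 74 and increases 11. Every pair showed the decrease for all 834 lower genes and the increase for 498 of the 502 higher ones. The CPM ranges of the groups did not overlap for 571 of the lower and 320 of the higher genes, where 15.6% of all genes tested had groups that did not overlap. The number of calls rested on replicates 1 and 3: it was 513 without replicate 1 and 302 without replicate 3, with 132 and 54 increases. Leaving out 1 library alone gave its lowest value, 667 calls, without the double knockdown library of replicate 1. The plot of fold change against level shows decreases at all levels of expression.

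**Figure D2:**
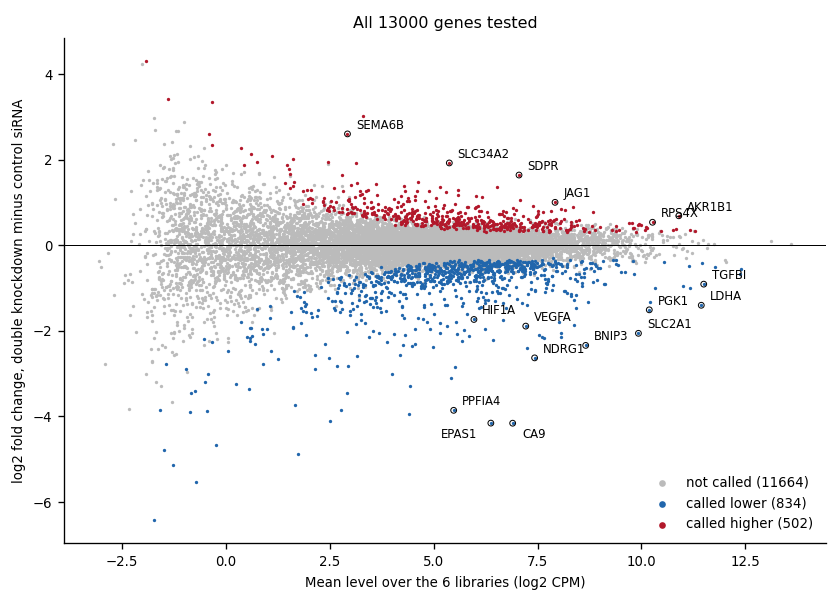
Log2 fold change (double knockdown minus control siRNA) of the 13000 genes tested against their mean level over the 6 libraries in log2 CPM; blue points were called lower (834), red points higher (502) and grey points were not called. The decreases of 2 or more on the log2 scale include abundant genes such as SLC2A1 (mean 974 CPM), and the increases of AKR1B1 and RPS4X, which are more abundant still, are below 1 on this scale.

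Among called genes with a mean of at least 5 CPM and the same direction in all 3 pairs, the largest decreases were those of CA9, EPAS1 itself, FAM115C, RIMKLA, PPFIA4, RORA, GPR146, APLN, STC1, MIR210HG, PFKFB4, KRT81, KSR1, AMPD3 and NDRG1. CA9, the membrane carbonic anhydrase that acidifies the space around ccRCC cells and serves as their marker, was at 252, 283 and 144 CPM with control siRNA and at 16.3, 16.0 and 6.77 CPM in the double knockdown, a 17.8-fold decrease (log2 fold change -4.16, standard error 0.16, edgeR adjusted p = 1.4e-09). Its levels in the 2 groups were separated by a wide gap in all pairs, although the control level of replicate 3 was the lowest. RIMKLA, an enzyme that joins N-acetylaspartate to glutamate, was at 49.5, 41.1 and 28.9 CPM with control siRNA and at 2.68, 2.93 and 2.04 CPM in the double knockdown (log2 fold change -3.95, standard error 0.24, edgeR adjusted p = 9.9e-08). PPFIA4, a liprin scaffold protein, was at 106, 86.3 and 58.3 CPM with control siRNA and at 5.91, 8.05 and 3.65 CPM in the double knockdown (log2 fold change -3.86, standard error 0.17, edgeR adjusted p = 3.8e-09). APLN, which encodes the vasoactive peptide apelin, fell to 3.84, 3.01 and 4.53 CPM from 49.5, 44.2 and 23.8 CPM. MIR210HG, the host transcript of the hypoxia-associated microRNA miR-210, fell to 6.77, 3.61 and 1.02 CPM from 30.5, 38.3 and 15.1 CPM. For these 5 genes, every library of the double knockdown lay below every control library. NDRG1, a stress-responsive gene of the N-myc downstream regulated family, was at 329.6, 260.1 and 301 CPM with control siRNA and at 52.9, 46.2 and 44.8 CPM in the double knockdown (log2 fold change -2.63, standard error 0.20, edgeR adjusted p = 7.3e-07), with little spread in either group. FAM115C has a close paralog, so that its count is less certain.

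The largest increases by the same rule were SEMA6B, RAB3IL1, SLC34A2, KCP, SDPR, IL6R, GNG4, WNT2B, FOSB, ADAMTS15, EVI2A, CDH6, BMF, HES1 and LIPC. SEMA6B, a transmembrane semaphorin that guides axons through plexins, was at 2.02, 2.31 and 2.11 CPM with control siRNA and at 10.1, 14.3 and 14.8 CPM in the double knockdown, a 6.08-fold increase (log2 fold change 2.60, standard error 0.34, edgeR adjusted p = 1.6e-04). SLC34A2, a sodium-phosphate cotransporter, was at 25.6, 22.6 and 6.20 CPM with control siRNA and at 86.2, 78.7 and 30.2 CPM in the double knockdown (log2 fold change 1.93, standard error 0.23, edgeR adjusted p = 8.8e-05). SDPR, which encodes the caveolar protein cavin-2, was at 57.5, 68.3 and 62.2 CPM with control siRNA and at 165, 164 and 281 CPM in the double knockdown (log2 fold change 1.64, standard error 0.16, edgeR adjusted p = 1.3e-05). All 3 genes had groups that did not overlap, and the SDPR value of replicate 3 stood above the other 2 knockdown libraries. CDH6, a cadherin of the embryonic kidney tubule, rose from 58.0, 63.3 and 32.8 CPM to 124, 178 and 95.4 CPM (edgeR adjusted p = 1.6e-04). LIPC, hepatic lipase, rose from 28.7, 36.9 and 19.3 CPM to 76.5, 80.6 and 48.0 CPM (edgeR adjusted p = 2.3e-06), and IL6R, the interleukin-6 receptor, from 2.39, 3.66 and 4.22 CPM to 8.74, 10.2 and 12.7 CPM (edgeR adjusted p = 2.6e-04). FOSB, an immediate-early gene, was at 10.8, 1.00 and 0.868 CPM with control siRNA and at 31.4, 3.01 and 1.56 CPM in the double knockdown, highest in replicate 1 in both groups, so that the groups overlapped although each pair rose (edgeR adjusted p = 0.0024). KCP and HES1 also overlapped between groups.

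Glycolysis was the function with the most uniform decrease. Of 16 enzymes that carry glucose to pyruvate and lactate, 15 were lower and none was higher, with a median log2 fold change of -0.93 against 0.00 over all genes tested. ALDOC, the brain-type aldolase, was at 35.4, 38.3 and 38.1 CPM with control siRNA and at 6.42, 8.20 and 7.50 CPM in the double knockdown (log2 fold change -2.35, standard error 0.16, edgeR adjusted p = 2.2e-07). ENO2, the neuronal enolase, was at 518, 478 and 298 CPM with control siRNA and at 121, 125 and 55.9 CPM in the double knockdown (log2 fold change -2.15, standard error 0.11, edgeR adjusted p = 1.2e-08). PGK1, phosphoglycerate kinase and the first ATP-forming step, was at 1782, 1527 and 1858 CPM with control siRNA and at 616, 489 and 726 CPM in the double knockdown (log2 fold change -1.51, standard error 0.11, edgeR adjusted p = 3.2e-07). The other enzymes moved less than these 3. LDHA, the lactate dehydrogenase subunit that favours lactate, was at 4318, 4362 and 3389.7 CPM with control siRNA and at 1717, 1631 and 1235 CPM in the double knockdown (log2 fold change -1.40, standard error 0.11, edgeR adjusted p = 8.8e-07). GAPDH, often used as a reference transcript, had a log2 fold change of -0.56 (edgeR adjusted p = 0.019) and ENO1 of -0.48 (edgeR adjusted p = 0.0071). PFKM, the muscle phosphofructokinase, was the 1 enzyme not called, at 0.33 (edgeR adjusted p = 0.074). GAPDH, ENO1 and PFKM were picked for mention after their values were seen. In none of the 16 did the groups overlap. Without replicate 3, 10 of the 16 were lower.

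Genes of glucose uptake and of the fate of pyruvate were lower in part. In the list of glucose transporters and their regulators, 6 of 11 tested genes were lower and none was higher (3 without replicate 3). The share of lower genes was 54.5%, against 6.42% of all genes tested. The lower genes were SLC2A1, SLC2A3, PFKFB3, PFKFB4, TXNIP and ARRDC4. By DESeq2, with the GC and length trend removed or with the 6 libraries alone, 1 member was called higher. SLC2A1, the glucose transporter GLUT1, was at 1536, 1576 and 1594 CPM with control siRNA and at 429, 357 and 349 CPM in the double knockdown, with the control libraries within a few percent of one another (log2 fold change -2.06, standard error 0.10, edgeR adjusted p = 6.7e-09). SLC2A3, the transporter GLUT3, was at 17.5, 11.8 and 18.7 CPM with control siRNA and at 5.56, 4.44 and 8.52 CPM in the double knockdown (log2 fold change -1.38, standard error 0.21, edgeR adjusted p = 6.3e-04). PFKFB4, which makes the activator of phosphofructokinase fructose-2,6-bisphosphate, was at 84.6, 86.3 and 70.1 CPM with control siRNA and at 10.4, 15.3 and 8.37 CPM in the double knockdown (log2 fold change -2.85, standard error 0.15, edgeR adjusted p = 2.1e-08). TXNIP, which restrains glucose uptake and so acts against the transporters, was also lower (log2 fold change -0.59, edgeR adjusted p = 0.0064). Of 20 genes of lactate export, pyruvate entry into mitochondria and pH control, 7 were lower and none was higher. PDK1, the kinase that shuts pyruvate dehydrogenase, was at 115, 68.3 and 71.2 CPM with control siRNA and at 27.0, 18.7 and 18.0 CPM in the double knockdown (log2 fold change -1.99, standard error 0.17, edgeR adjusted p = 2.2e-06), and CA12, a second membrane carbonic anhydrase, was at 89.5, 82.3 and 54.1 CPM with control siRNA and at 21.4, 24.0 and 10.2 CPM in the double knockdown (log2 fold change -2.08, standard error 0.13, edgeR adjusted p = 1.4e-07). Both separated the groups completely.

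Glycogen genes fell across synthesis and breakdown, 9 of 16 with none higher and a median log2 fold change of -0.66. GYS1, the muscle-type glycogen synthase, was at 142, 132 and 149 CPM with control siRNA and at 68.1, 56.6 and 85.1 CPM in the double knockdown (log2 fold change -1.02, standard error 0.12, edgeR adjusted p = 4.6e-05). The phosphatase subunits that bring protein phosphatase 1 to glycogen fell further, PPP1R3C from 54.8, 47.8 and 32.7 CPM to 11.9, 11.5 and 14.6 CPM and PPP1R3B from 131, 119 and 130.0 CPM to 52.4, 50.2 and 50.5 CPM (edgeR adjusted p = 2.3e-05 and 1.2e-06). STBD1, which tethers glycogen for uptake into lysosomes, fell from 60.6, 48.2 and 60.6 CPM to 19.5, 23.4 and 21.1 CPM (edgeR adjusted p = 5.4e-06). None of these 4 genes had overlapping groups.

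Promoters of members that fell together are shown to let a reader see where HIF core motifs lie, beside a promoter of SLC2A1, a strong decrease with no match in the window, and of JAG1, an increase with several. Each run is the 250 bases before the RefSeq start in GRCh38.p14, from 5′ to 3′ on the strand of the gene, and capitals mark ACGTG or GCGTG or their reverse complements CACGT and CACGC, where matches that overlap run together. The windows are chr9:35673678-35673927 (plus strand) for CA9, chr17:28576896-28577145 (minus strand) for ALDOC, chrX:78103998-78104247 (plus strand) for PGK1, chr10:131981924-131982173 (minus strand) for BNIP3, chr1:42958869-42959118 (minus strand) for SLC2A1 and chr20:10674000-10674249 (minus strand) for JAG1.
CA9: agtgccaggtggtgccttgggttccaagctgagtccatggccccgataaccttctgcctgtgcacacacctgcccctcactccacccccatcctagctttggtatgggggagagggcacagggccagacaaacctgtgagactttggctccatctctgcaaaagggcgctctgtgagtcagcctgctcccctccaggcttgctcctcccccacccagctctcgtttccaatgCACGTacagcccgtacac
ALDOC: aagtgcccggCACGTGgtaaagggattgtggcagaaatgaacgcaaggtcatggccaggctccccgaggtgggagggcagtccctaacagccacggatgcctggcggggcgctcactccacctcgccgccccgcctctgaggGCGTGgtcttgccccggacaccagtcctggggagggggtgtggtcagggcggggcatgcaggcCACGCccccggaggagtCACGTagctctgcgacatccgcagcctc
PGK1: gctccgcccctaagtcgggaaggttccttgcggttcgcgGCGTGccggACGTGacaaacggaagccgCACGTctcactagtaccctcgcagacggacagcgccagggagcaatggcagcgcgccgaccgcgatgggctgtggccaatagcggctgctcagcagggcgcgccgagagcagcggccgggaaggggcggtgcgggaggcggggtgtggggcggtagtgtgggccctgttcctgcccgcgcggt
BNIP3: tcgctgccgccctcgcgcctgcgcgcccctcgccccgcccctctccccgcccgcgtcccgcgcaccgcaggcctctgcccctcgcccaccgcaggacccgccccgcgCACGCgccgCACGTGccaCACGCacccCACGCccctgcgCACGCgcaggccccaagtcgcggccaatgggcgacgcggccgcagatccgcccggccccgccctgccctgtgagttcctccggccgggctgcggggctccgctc
SLC2A1: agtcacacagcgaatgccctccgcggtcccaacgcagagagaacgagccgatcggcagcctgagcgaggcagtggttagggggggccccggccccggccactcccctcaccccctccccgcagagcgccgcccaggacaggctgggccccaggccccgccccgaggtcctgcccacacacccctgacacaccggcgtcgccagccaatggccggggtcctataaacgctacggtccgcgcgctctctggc
JAG1: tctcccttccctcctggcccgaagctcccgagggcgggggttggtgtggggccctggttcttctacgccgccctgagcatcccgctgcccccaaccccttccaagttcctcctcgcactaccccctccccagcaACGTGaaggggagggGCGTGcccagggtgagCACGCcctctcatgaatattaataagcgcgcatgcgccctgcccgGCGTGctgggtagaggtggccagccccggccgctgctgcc
CA9 holds 1 match, which begins at position -18 from the start, ALDOC holds 5 matches, PGK1 3, BNIP3 6, SLC2A1 0 and JAG1 4. A promoter was found by symbol for 10330 of the tested genes, and over its 300 bases (250 before and 50 after the start) 63.1% held either motif, against 48.4% of all 27305 promoters in the table. The share was 64.3% of 664 promoters of lower genes (95% Wilson interval 60.6 to 67.9%) and 62.3% of 408 promoters of higher genes (57.5 to 66.8%), and both intervals include the share of all tested genes. Among genes lower by 1 or more on the log2 scale it was 67.0% of 191 (60.1 to 73.3%). For ACGTG alone the shares were 26.7% of all tested genes, 29.2% of lower genes, 35.1% of genes lower by 1 or more and 25.2% of higher genes. A match is a description of letters, not a binding site.

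Genes of mitochondrial turnover and oxygen sensing were lower in part. Of 23 genes of mitophagy and autophagy, 5 were lower and none was higher (3 without replicate 3). BNIP3, a receptor on the outer mitochondrial membrane that recruits autophagosomes, was at 753, 754 and 517 CPM with control siRNA and at 157, 139.5 and 104 CPM in the double knockdown (log2 fold change -2.34, standard error 0.09, edgeR adjusted p = 1.4e-09), and its paralog BNIP3L was at 383, 298 and 309 CPM with control siRNA and at 75.5, 63.9 and 82.8 CPM in the double knockdown (log2 fold change -2.15, standard error 0.12, edgeR adjusted p = 4.5e-08). The remaining 18 genes of the list were not called. NDUFA4L2, a mitochondrial protein and ccRCC marker outside this list, fell from 372, 677 and 202 CPM to 118, 199 and 27.2 CPM, with a spread of several fold between replicates but a decrease in each pair (edgeR adjusted p = 2.1e-04). EGLN3, the hydroxylase that forms a feedback loop on HIF, was at 91.3, 102 and 87.5 CPM with control siRNA and at 24.1, 25.1 and 16.0 CPM in the double knockdown (log2 fold change -2.12, standard error 0.13, edgeR adjusted p = 1.2e-07). EGLN1, the main HIF hydroxylase, moved less (log2 fold change -0.45, standard error 0.12, edgeR adjusted p = 0.028) and was chosen for mention after its values were seen. Together 6 of 10 tested genes of this group were lower, 2 of them the targeted genes, and none was higher (3 without replicate 3 and 3 without replicate 1).

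Collagen-modifying enzymes and some histone demethylases, most of which use oxygen and 2-oxoglutarate, were lower as well. Of 15 genes that hydroxylate or cross-link collagen, 6 were lower and none was higher. P4HA1, the catalytic subunit of collagen prolyl hydroxylase, was at 188, 195 and 221 CPM with control siRNA and at 69.1, 72.1 and 98.2 CPM in the double knockdown (log2 fold change -1.35, standard error 0.13, edgeR adjusted p = 8.8e-06). PLOD2, a lysyl hydroxylase, was at 417, 354 and 532 CPM with control siRNA and at 166, 156 and 266 CPM in the double knockdown (log2 fold change -1.18, standard error 0.12, edgeR adjusted p = 1.4e-05), and LOX, the copper enzyme that cross-links collagen outside the cell, was at 179, 178 and 112 CPM with control siRNA and at 56.1, 55.6 and 30.2 CPM in the double knockdown (log2 fold change -1.74, standard error 0.14, edgeR adjusted p = 1.7e-06). For all 3 the groups were separate. Of 18 JmjC histone demethylases, 3 were lower and none was higher, namely KDM3A, KDM4B and KDM5B, which remove methyl groups from histone H3. KDM3A fell from 102, 70.7 and 92.4 CPM to 44.3, 39.3 and 46.4 CPM and KDM4B from 71.1, 72.8 and 89.1 CPM to 33.9, 30.6 and 47.9 CPM (edgeR adjusted p = 8.1e-05 and 1.8e-04). The median of this list was -0.08 and changed sign when the GC and length trend was removed.

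Secreted signals to vessels were lower in 12 of 25 genes and higher in 1 (0 higher without replicate 1 or without replicate 3), with a median log2 fold change of -0.71. VEGFA, the main angiogenic factor of ccRCC, was at 249, 260.4 and 194 CPM with control siRNA and at 66.9, 66.5 and 55.7 CPM in the double knockdown (log2 fold change -1.89, standard error 0.10, edgeR adjusted p = 3.1e-08). STC1, a secreted glycoprotein, was at 104, 82.7 and 41.0 CPM with control siRNA and at 11.9, 11.7 and 3.80 CPM in the double knockdown (log2 fold change -3.10, standard error 0.18, edgeR adjusted p = 4.5e-08), and FGF11, a member of the intracellular fibroblast growth factor homologs despite its place in the list, was at 36.6, 34.0 and 24.0 CPM with control siRNA and at 6.72, 5.19 and 3.99 CPM in the double knockdown (log2 fold change -2.57, standard error 0.16, edgeR adjusted p = 1.2e-07). These 3 genes had no overlap between groups. SEMA3F, a secreted semaphorin, was the 1 higher member (log2 fold change 0.68, edgeR adjusted p = 0.015). The list mixes functions, and THBS1, described below with the matrix genes, was among its 12 lower members. Of 14 genes of coagulation and fibrinolysis, 5 were lower and 2 higher (2 and 0 without replicate 3). F3, the tissue factor that starts coagulation, was at 246, 274 and 245 CPM with control siRNA and at 48.8, 52.8 and 43.2 CPM in the double knockdown (log2 fold change -2.40, standard error 0.16, edgeR adjusted p = 1.5e-07). The urokinase receptor PLAUR and the plasminogen activator PLAT were lower by log2 fold changes of -0.74 and -1.18. F2RL1, a protease-activated receptor, and ANXA2 rose (log2 fold changes 0.42 and 0.35). In adenosine metabolism, the ectonucleotidase NT5E fell from 129, 101 and 218 CPM to 52.2, 51.9 and 63.5 CPM and the adenosine receptor ADORA2A rose from 14.0, 16.6 and 12.9 CPM to 32.1, 28.5 and 35.5 CPM (edgeR adjusted p = 2.1e-05 and 3.3e-04), while AK4, a mitochondrial adenylate kinase, fell from 568, 478 and 504 CPM to 159.7, 133 and 136 CPM (edgeR adjusted p = 4.5e-08).

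Lipid storage genes fell with part of lipid synthesis. The list of fatty acid synthesis and lipid droplets had 7 of 35 genes lower and none higher (4 without replicate 3). PLIN2, the coat protein of the droplets that make ccRCC cells clear, was at 257, 239 and 212 CPM with control siRNA and at 123, 113 and 102 CPM in the double knockdown (log2 fold change -1.07, standard error 0.11, edgeR adjusted p = 1.5e-05). HILPDA, which blocks droplet lipolysis, was at 51.7, 43.5 and 24.4 CPM with control siRNA and at 18.6, 14.7 and 11.1 CPM in the double knockdown (log2 fold change -1.39, standard error 0.13, edgeR adjusted p = 8.5e-06), and SCD, the stearoyl-CoA desaturase, was at 519, 434 and 439 CPM with control siRNA and at 156, 175 and 263 CPM in the double knockdown (log2 fold change -1.28, standard error 0.17, edgeR adjusted p = 2.4e-04). MGLL, which completes lipolysis, was lower too (log2 fold change -1.17, edgeR adjusted p = 1.7e-04). In cholesterol metabolism, 4 of 30 genes were lower and none was higher (1 without replicate 3 and 1 without replicate 1). The share of lower genes was 13.3%, against 6.42% of all genes tested. INSIG2, which holds the sterol sensor in the endoplasmic reticulum (ER), was the largest of them, at 60.5, 53.5 and 53.6 CPM with control siRNA and at 13.7, 17.3 and 16.7 CPM in the double knockdown (log2 fold change -1.82, standard error 0.16, edgeR adjusted p = 4.0e-06), and the synthesis enzymes MSMO1 and SQLE moved by -0.44 and -0.38. In fatty acid oxidation and peroxisomes, 6 of 41 genes were higher, 1, ACAA2, was lower and 34 were not called, with a median log2 fold change of 0.04. No gene of the list was called higher without replicate 3 or without replicate 1, and the counts were 7 higher and 6 lower in a fit of the 6 libraries alone and 6 higher and 3 lower with a GC and length trend removed. The peroxisomal import gene PEX6 was higher by 0.74 on the log2 scale, the enoyl-CoA isomerases ECI1 and ECH1 by 0.55 and 0.41, and PPARGC1B, a coactivator of mitochondrial biogenesis, by 0.77 (edgeR adjusted p = 0.022).

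Iron and redox genes split. Among 21 genes of iron and heme, HMOX1, CP and STEAP3 were lower and none was higher (1 lower without replicate 3). HMOX1, heme oxygenase, was at 117, 161 and 119 CPM with control siRNA and at 66.7, 80.3 and 53.3 CPM in the double knockdown (log2 fold change -0.99, standard error 0.13, edgeR adjusted p = 2.0e-04), and CP, the ferroxidase ceruloplasmin, was at 65.0, 54.4 and 89.6 CPM with control siRNA and at 38.0, 35.8 and 49.8 CPM in the double knockdown (log2 fold change -0.75, standard error 0.11, edgeR adjusted p = 5.6e-04). Of 29 targets of the antioxidant factor NRF2, HMOX1 and the transporter ABCC3 were lower, and AKR1B1, ABCC2, GPX4 and GSTP1 were higher (1 lower and 1 higher without replicate 3, 1 and 2 without replicate 1). The shares were 6.90% lower and 13.8% higher, against 6.42% and 3.86% of all genes tested. AKR1B1, the aldose reductase that turns glucose into sorbitol, was at 1354, 1510.2 and 1510.0 CPM with control siRNA and at 2490.1, 2127 and 2457 CPM in the double knockdown (log2 fold change 0.69, standard error 0.10, edgeR adjusted p = 3.2e-04). The 2 groups did not overlap for AKR1B1 or ABCC2, whereas they did for GSTP1.

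Genes of amino acid stress and of the ER moved in part. DDIT4, an inhibitor of mTORC1, was at 180.5, 130.1 and 116 CPM with control siRNA and at 34.7, 28.8 and 27.2 CPM in the double knockdown (log2 fold change -2.22, standard error 0.14, edgeR adjusted p = 9.9e-08), and TRIB3, a pseudokinase induced by amino acid stress, was at 219, 232 and 208 CPM with control siRNA and at 92.4, 76.0 and 81.4 CPM in the double knockdown (log2 fold change -1.40, standard error 0.11, edgeR adjusted p = 1.1e-06). They stood among 6 lower genes of the 27 in the list of ATF4 and amino acid stress, in which 3 were higher (4 and 1 without replicate 3). PSAT1, of serine synthesis, rose from 43.1, 57.7 and 72.7 CPM to 85.7, 91.8 and 120.4 CPM (edgeR adjusted p = 6.1e-04), whereas SHMT2, which passes the carbon of serine to folate in mitochondria, fell from 426, 437 and 425 CPM to 281, 227 and 238 CPM (edgeR adjusted p = 1.6e-04). Of 41 genes of ER folding and degradation, 5 were lower (12.2%, against 6.42% of all genes tested) and none was higher. The lower genes numbered 1 without replicate 3 and 2 without replicate 1. The median of the list was 0.02, with 21 members positive and 20 negative. ERO1L, the oxidase that drives disulfide formation, led the decreases (log2 fold change -1.22, standard error 0.14, edgeR adjusted p = 4.9e-05). The list of cytosolic heat shock and proteasome genes had 0 calls among 42 in edgeR's test, with 1 gene, HSPE1, at an unadjusted p under 0.05 (edgeR adjusted p = 0.10) and 1 call by DESeq2.

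Matrix, adhesion and cytoskeleton genes were called lower more often than higher. The counts of lower genes were 6 of 20 collagens, 5 of 25 laminins and other matrix proteins, 5 of 21 matrix proteases and inhibitors, 4 of 21 integrins and associated genes and 8 of 31 actin and SRF target genes, with 1 increase in all 5 lists, the integrin ITGB6. The called collagens included COL15A1 and COL16A1, with log2 fold changes of -2.14 and -1.58 (edgeR adjusted p = 0.013 and 0.0020). TGFBI, an abundant matrix protein induced by TGF-beta, was at 3925, 4005 and 3373 CPM with control siRNA and at 1892, 2269 and 1886 CPM in the double knockdown (log2 fold change -0.91, standard error 0.09, edgeR adjusted p = 1.8e-05). THBS1, thrombospondin-1, was at 3313, 2500.1 and 3403 CPM with control siRNA and at 1484, 1309 and 1834 CPM in the double knockdown (edgeR adjusted p = 4.6e-04), and ITGB8, an integrin that activates TGF-beta, was at 132, 96.8 and 91.6 CPM with control siRNA and at 55.4, 35.1 and 41.3 CPM in the double knockdown (log2 fold change -1.28, standard error 0.13, edgeR adjusted p = 1.6e-05). Each of these 3 had separate groups. LAMB3, a laminin chain of epithelial basement membranes, was highest in replicate 3 in both groups and fell within pairs, from 536, 398 and 829 CPM to 289, 219 and 472 CPM (edgeR adjusted p = 0.0025). MMP9, a gelatinase, fell from 25.7, 28.4 and 26.6 CPM to 13.2, 15.5 and 4.82 CPM (edgeR adjusted p = 0.0023), and the actin-binding genes CALD1 and TPM4 moved by -0.82 and -0.68. These counts were sensitive to single replicates: without replicate 3 the lower genes numbered 1, 4, 1, 1 and 0 in the order given, and without replicate 1 they numbered 1, 4, 3, 2 and 3. Of 29 TGF-beta and BMP genes, 5 were lower and 2 higher (2 and 1 without replicate 3, 3 and 0 without replicate 1), with the receptor TGFBR1 lower at -0.81 and the mediator SMAD3 higher at 0.64 (edgeR adjusted p = 0.0020 and 0.0035). Of 23 YAP and TEAD target genes, 5 were lower, YAP1 itself among them, and 2 were higher (2 and 0 without replicate 1 and also without replicate 3). These YAP and TEAD shares were 21.7% and 8.70%, against 6.42% and 3.86% of all genes tested.

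Inflammatory genes of the NF-kappaB response were lower in 11 of 32 members and higher in 3. Without replicate 3 the counts were 4 and 0. IL8, a neutrophil chemokine, was at 131, 84.0 and 159 CPM with control siRNA and at 72.1, 44.6 and 61.1 CPM in the double knockdown (log2 fold change -1.07, standard error 0.14, edgeR adjusted p = 2.2e-04). TNIP1, a feedback inhibitor of the pathway, was at 499.7, 426 and 405 CPM with control siRNA and at 333, 264 and 246 CPM in the double knockdown (log2 fold change -0.67, standard error 0.10, edgeR adjusted p = 8.3e-04), and TRAF1, an adaptor of TNF receptors, fell within each pair although its groups overlapped (log2 fold change -1.29, standard error 0.19, edgeR adjusted p = 5.4e-04). CCL20, a chemokine at low level, was at 2.02, 1.66 and 1.24 CPM with control siRNA and at 0.0505, 0.150 and 0 CPM in the double knockdown (edgeR adjusted p = 0.0013), so that the size of its change is uncertain. VCAM1, an adhesion molecule, rose from 86.8, 68.3 and 58.1 CPM to 124, 143 and 91.3 CPM (edgeR adjusted p = 0.014). Interferon-stimulated genes had 2 of 43 lower and none higher, SAMD9 and DDX58 (0 without replicate 1 or without replicate 3). Their share called lower was 4.65%, below the 6.42% of all genes tested. The 13 genes of the RNA interference machinery had 0 calls in edgeR's test, 1 gene at an unadjusted p under 0.05 and 1 call by DESeq2.

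Transcriptional regulators formed a further group. In the circadian list, 6 of 18 genes were lower and none was higher (3 without replicate 3). BHLHE40, a repressor of the clock, was at 211, 208 and 124 CPM with control siRNA and at 75.5, 89.3 and 61.0 CPM in the double knockdown (log2 fold change -1.24, standard error 0.11, edgeR adjusted p = 4.4e-06), and its paralog BHLHE41 was at 133, 117 and 83.2 CPM with control siRNA and at 52.0, 53.7 and 33.3 CPM in the double knockdown (log2 fold change -1.27, standard error 0.13, edgeR adjusted p = 1.5e-05). RORA, a nuclear receptor of the clock, was at 17.3, 11.5 and 9.79 CPM with control siRNA and at 1.36, 0.376 and 0.876 CPM in the double knockdown (log2 fold change -3.85, standard error 0.29, edgeR adjusted p = 6.8e-07). For the 3 genes no double knockdown library reached a control level. The partner of ARNT in dioxin sensing, AHR, fell from 62.3, 51.8 and 78.2 CPM to 33.4, 33.4 and 46.4 CPM and its target TIPARP from 62.1, 34.2 and 52.9 CPM to 34.0, 23.4 and 30.4 CPM, while the AHR repressor AHRR rose from 1.29, 1.56 and 0.868 CPM to 6.01, 4.81 and 3.90 CPM (edgeR adjusted p = 5.0e-04, 0.0052 and 0.0017). In this pathway 3 of 9 genes were lower and 1 higher (1 and 1 without replicate 1, 0 and 0 without replicate 3). MXI1, an antagonist of MYC, was lower (log2 fold change -0.90), and MXD4, another antagonist, was higher (0.91; edgeR adjusted p = 0.0010 and 0.017). In the apolipoprotein L family, whose members are similar in sequence, 2 of 4 tested genes were lower and 1 higher (1 and 0 without replicate 3, 2 and 0 without replicate 1). The lower genes were APOL1 and APOL2, and APOL6 was higher (log2 fold change 0.35). APOL1 was at 289.7, 276 and 267 CPM with control siRNA and at 151, 151 and 119 CPM in the double knockdown (edgeR adjusted p = 1.8e-05).

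Genes of DNA replication and mitosis were called at shares near or below the background of all genes. Of 47 genes of DNA replication, 2 were higher, RPA1 and RRM2 (4.26%, and 1 without replicate 3), and none was lower. Of 53 mitotic genes, 2 were lower and 2 higher (3.77% each, and 0 and 0 without replicate 1 and also without replicate 3). Among 21 genes of the G1 phase, 5 were lower and 1 higher (2 and 0 without replicate 3, 3 and 0 without replicate 1). CCND1, which encodes cyclin D1, was at 606, 568 and 329.9 CPM with control siRNA and at 319.7, 288 and 170.3 CPM in the double knockdown, with the level of replicate 3 the lowest in both groups (log2 fold change -0.95, standard error 0.10, edgeR adjusted p = 1.8e-05). E2F7, a repressor of E2F targets, fell from 133, 67.4 and 158 CPM to 57.8, 47.6 and 76.0 CPM (edgeR adjusted p = 5.6e-04). Of 26 p53 target genes, 4 were lower and 2 higher (1 and 0 without replicate 3, 1 and 1 without replicate 1). The p53 shares were 15.4% and 7.69%, against 6.42% and 3.86% of all genes tested. In the apoptosis list 4 of 28 were lower, the caspase adaptor APAF1 and the inhibitors BIRC3, CFLAR and BCL2A1, and BMF, a BH3-only activator of death, was higher (0 and 0 without replicate 3, 2 and 0 without replicate 1).

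Receptors and signalling genes moved in both directions. Of 27 genes of insulin and IGF signalling, 2 were lower and 2 higher (1 and 1 without replicate 1 and also without replicate 3). The insulin and IGF shares were 7.41% each, against 6.42% and 3.86% of all genes tested, with a median log2 fold change of -0.10. IRS2, the insulin receptor substrate, was at 308, 367 and 219 CPM with control siRNA and at 89.1, 85.6 and 42.0 CPM in the double knockdown (log2 fold change -2.09, standard error 0.15, edgeR adjusted p = 3.2e-07), whereas INSR, the insulin receptor, rose from 15.6, 17.1 and 13.1 CPM to 28.9, 29.2 and 18.7 CPM (edgeR adjusted p = 0.014) and PIK3R2, a regulatory subunit of PI3-kinase, was at 38.4, 52.7 and 42.8 CPM with control siRNA and at 99.7, 96.7 and 98.3 CPM in the double knockdown (log2 fold change 1.14, standard error 0.13, edgeR adjusted p = 3.7e-05). The PIK3R2 increase had the narrowest spread among knockdown libraries of the genes in this paragraph. INSR lost its call without replicate 1 and also without replicate 3, and it is counted again in the next list. Among 24 receptor tyrosine kinases and ligands, MACC1 and TGFA were lower and NRG1, FGFR4, INSR and FGFR3 higher (1 lower and 0 higher without replicate 3). NRG1, a ligand of ERBB receptors, rose from 76.6, 56.1 and 92.2 CPM to 114, 100.3 and 156 CPM and TGFA, a ligand of the EGF receptor, fell with a log2 fold change of -0.82 (edgeR adjusted p = 7.8e-04 and 5.6e-04). JAG1, a Notch ligand, was at 160.4, 158 and 165 CPM with control siRNA and at 319, 353 and 299.5 CPM in the double knockdown (log2 fold change 1.01, standard error 0.11, edgeR adjusted p = 2.3e-05), and the Notch list held 2 higher and 3 lower genes of 17 (1 and 1 without replicate 1 and also without replicate 3). Of 25 Wnt pathway genes, 6 were lower, among them the ligand WNT5A (log2 fold change -1.30), and 3 were higher, among them the ligand WNT2B (1.43); without replicate 3 the counts were 1 and 1, and without replicate 1 they were 3 and 1.

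Ribosomal protein genes held the largest number of increases of any list, and each increase was small. Of 77 tested genes of the cytosolic ribosome, 17 were higher and none was lower, with a median log2 fold change of 0.37, and 74 had a higher level in all 3 pairs. The genes share the same 3 pairs, so these 74 are not separate observations, and the share over all genes is not given here. In 8 of the 77 (against 15.6% of all genes) the groups did not overlap. RPS4X was at 911, 1047 and 1055 CPM with control siRNA and at 1343, 1575 and 1457 CPM in the double knockdown (log2 fold change 0.54, standard error 0.11, edgeR adjusted p = 0.0053), with separate groups. RPL13A was at 175, 248 and 149 CPM with control siRNA and at 298, 352 and 214 CPM in the double knockdown (log2 fold change 0.59, standard error 0.12, edgeR adjusted p = 0.0059), with overlap between groups, since replicate 3 was low and replicate 2 high in both. The direction was positive by DESeq2 (median 0.38, 35 genes higher) and with the GC and length trend removed (median 0.35, 36 genes higher). The number of calls depended on the fit: 69 of the genes were higher when only the 6 libraries were fitted, and edgeR called 0 without replicate 1, without replicate 3 or with no replicate block, where 25, 42 and 10 genes had an unadjusted p under 0.05. Reads that mapped to more than 1 place had been removed, and ribosomal protein genes have many processed pseudogenes, so their counts may hold only part of their reads. The mitochondrial machinery had smaller values: 2 of 75 mitochondrial ribosome genes, 0 of 38 complex I genes and 3 of 40 genes of complexes II to V were higher, none was lower, and the medians were 0.22, 0.18 and 0.20. The shares called higher were 2.67%, 0% and 7.5%, against 3.86% of all genes tested. UQCRH, a subunit of complex III, was the strongest of the called mitochondrial genes (log2 fold change 0.61, standard error 0.11, edgeR adjusted p = 0.0017). In complex I, 4 genes had an unadjusted p under 0.05, DESeq2 called 1, and NDUFS3 had an edgeR adjusted p of 0.071. Without replicate 3, edgeR called none of these mitochondrial genes. Ribosome biogenesis (3 of 36 higher or 8.33%, among them NPM1 at 0.35) and the spliceosome (3 of 47 higher or 6.38%, among them SRSF5 at 0.43) had no lower gene, and edgeR called 0 of either without replicate 1 or without replicate 3. CS, citrate synthase, was the 1 higher gene of the TCA cycle, at 0.41, and ACLY, which uses its product for lipid synthesis, was the 1 lower gene, at -0.44. The strip plot sets these lists beside glycolysis.

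**Figure D3:**
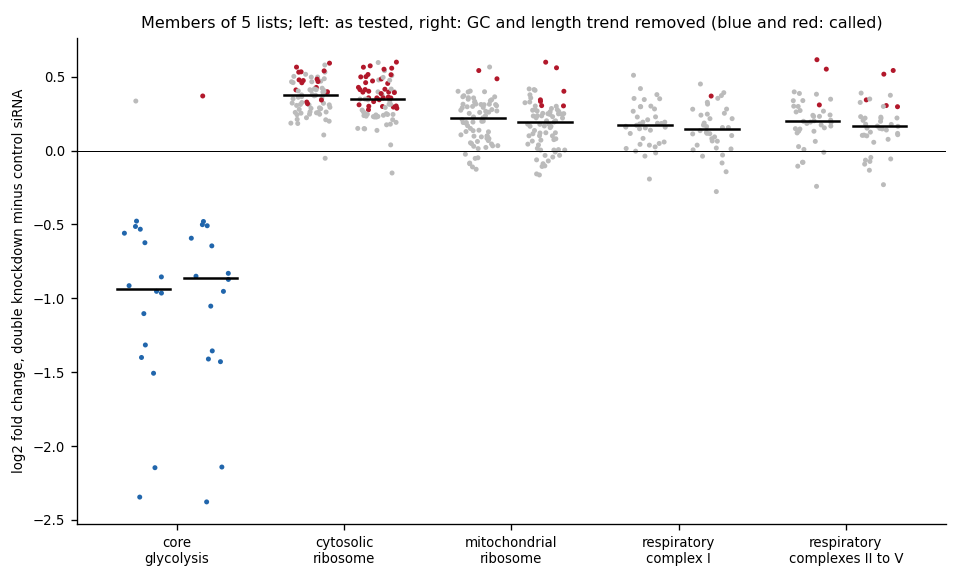
Log2 fold change (double knockdown minus control siRNA) of each tested member of 5 lists, as tested (left strip of each pair) and with a trend over GC content and gene length removed (right strip); black bars are medians, blue and red points were called lower and higher. Glycolysis lies below 0 except for 1 gene (median -0.93), and the cytosolic ribosome lies mostly above 0 (median 0.37).

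Across the 59 function lists, 1465 distinct genes were tested, of which 192 were lower and 84 higher. Among lists of 10 or more tested genes, the highest shares of lower genes were in core glycolysis, oxygen sensors and HIF subunits, glycogen metabolism, glucose uptake and secreted angiogenic factors, and the highest share of higher genes was in the cytosolic ribosome. The lower genes of the list of oxygen sensors and HIF subunits include HIF1A and EPAS1, the siRNA targets, so its rank rests in part on the design. Of the lists not described above, the immediate-early genes held 6 lower and 2 higher of 28 (2 and 2 without replicate 3, 3 and 0 without replicate 1) and the list of cadherins, junctions and mesenchymal factors 3 lower and 3 higher of 26 (0 and 1 without replicate 3, 1 and 2 without replicate 1). The list of lysosome and v-ATPase genes held 1 lower gene of 37 (2.70%, against 6.42% of all genes tested). That of aminoacyl-tRNA synthetases held 1 higher of 19 (5.26%, against 3.86%). That of replication-dependent histones held 0 of 6, of which 0 had an unadjusted p under 0.05 and DESeq2 called 0. Since the lists differ in size and were chosen with results of these data known, the shares are a description and carry no test.

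**Figure D4:**
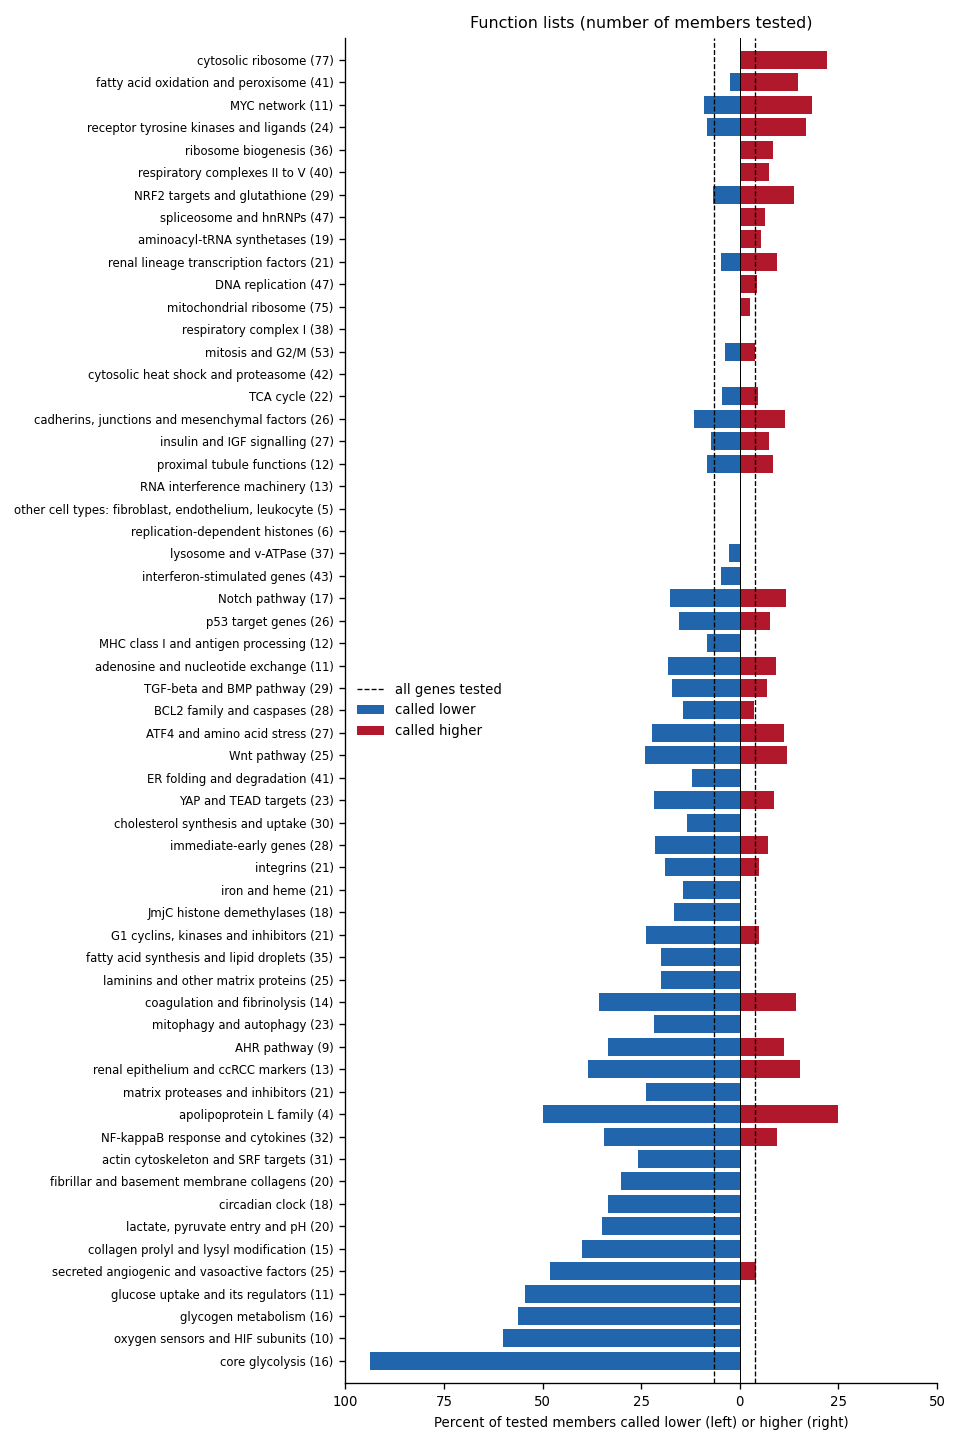
Percent of tested members called lower (blue, left) and higher (red, right) in each of 59 function lists, with the number tested in parentheses; dashed lines mark the shares over all genes tested, 6.42% lower and 3.86% higher. Core glycolysis (15 of 16 lower) is the longest bar to the left, and the cytosolic ribosome at the top has 17 of 77 higher and 0 lower.

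The double knockdown was next tested against each single knockdown, which asks what the second siRNA added. Against HIF1A siRNA, 182 genes were called (1.4%), 126 lower (0.969%) and 56 higher (0.431%). Against HIF2A siRNA, 520 were called (4.0%), 418 lower (3.22%) and 102 higher (0.785%). The counts rested on replicate 3, without which they were 22 and 4 against HIF1A siRNA and 147 and 11 against HIF2A siRNA, and they moved to 55 and 16 and to 240 and 25 without replicate 1. Background shares against control siRNA were 1.39% called with HIF1A siRNA (1.33% lower, 0.0615% higher) and 0.2% with HIF2A siRNA (0.192% lower, 0.00769% higher). The 3 comparisons with control siRNA share its 3 libraries, so their values are set side by side without a measure of likeness.

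For glycolysis, mitophagy and collagen modification, the tests separated the double knockdown mainly from HIF2A siRNA. With HIF1A siRNA alone, 13 of the 16 glycolysis genes were lower, with HIF2A siRNA alone edgeR called 0 (1 at an unadjusted p under 0.05), and the median log2 fold changes were -0.83 and 0.06 beside -0.93 with both. The double knockdown was lower than HIF2A siRNA in 15 of the 16 and lower than HIF1A siRNA in 1, ENO2. Of the mitophagy genes 4 were lower than with HIF2A siRNA and of the collagen-modifying genes 6, against 0 and 1 lower than with HIF1A siRNA. For BNIP3 the log2 fold change was -2.33 with HIF1A siRNA, 0.10 with HIF2A siRNA and -2.34 with both, and the double knockdown differed from HIF1A siRNA by -0.01 (standard error 0.09, edgeR adjusted p = 0.98). For CA9 the values were -3.65, 0.43 and -4.16, with a difference from HIF2A siRNA of -4.59 (edgeR adjusted p = 5.9e-10), the smallest p of that comparison, ahead of BNIP3, PPFIA4, PFKFB4 and ENO2. A difference from HIF1A siRNA was not detected for CA9 (-0.51, standard error 0.15, edgeR adjusted p = 0.15).

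A second set was lower with both siRNAs than with either alone. SLC2A1 was at 1215, 1165 and 1149.5 CPM with HIF1A siRNA and 940.4, 935 and 935 CPM with HIF2A siRNA, between the control and double knockdown levels given above. Its log2 fold changes were -0.42, -0.74 and -2.06 with both, and the double knockdown differed from HIF1A siRNA by -1.64 and from HIF2A siRNA by -1.31 (edgeR adjusted p = 3.3e-07 and 7.1e-07). NDRG1 was at 159.7, 157 and 182 CPM with HIF1A siRNA and 146, 289 and 200.2 CPM with HIF2A siRNA, and both single knockdowns lay above all 3 libraries of the double one (edgeR adjusted p = 1.6e-04 and 8.2e-06). VEGFA gave -0.79, -0.68 and -1.89, and CA12 gave -0.49, -0.43 and -2.08, each lower in the double knockdown than in both single ones (edgeR adjusted p = 3.3e-05 and 3.2e-06 for VEGFA, 1.4e-05 and 2.2e-06 for CA12). EGLN3, DDIT4, BHLHE40, PPP1R3B and PLIN2 passed both tests in the same direction, with differences from HIF1A siRNA of -1.37, -0.96, -0.88, -0.78 and -0.86 and from HIF2A siRNA of -1.93, -2.14, -0.85, -0.81 and -0.60 on the log2 scale.

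Genes that fell with HIF2A siRNA alone made another set. SYT13, a synaptotagmin, IRS2 and F3 were, with EPAS1 and SLC2A1, the 5 smallest p-values among genes lower than with HIF1A siRNA. F3 had log2 fold changes of -0.52 with HIF1A siRNA, -1.42 with HIF2A siRNA and -2.40 with both, and the difference of the double knockdown from HIF2A siRNA was -0.99 (edgeR adjusted p = 0.0013). F3 was thus also lower with both siRNAs than with either alone, like the set before. ITGB8 gave -0.12, -1.05 and -1.28, CCND1 gave 0.03, -0.64 and -0.95, and HMOX1 gave -0.10, -0.84 and -0.99. For these last 3 genes the double knockdown was lower than HIF1A siRNA (edgeR adjusted p = 2.3e-04, 7.9e-05 and 0.0021), and no difference from HIF2A siRNA was detected (-0.23, -0.31 and -0.16, standard errors 0.13, 0.10 and 0.13).

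Several increases were larger with both siRNAs than with 1 of them alone, and some than with either alone. SEMA6B had log2 fold changes of 0.56 with HIF1A siRNA, 0.75 with HIF2A siRNA and 2.60 with both, and it exceeded each single knockdown (edgeR adjusted p = 0.0041 and 0.0032). SLC44A1, a choline transporter, was at 24.7, 25.7 and 36.8 CPM with control siRNA and at 54.4, 58.4 and 86.4 CPM in the double knockdown, at 22.7, 26.9 and 47.3 CPM with HIF1A siRNA and at 27.3, 26.8 and 48.0 CPM with HIF2A siRNA. Its 3 double knockdown libraries lay above all 9 others (edgeR adjusted p = 2.2e-04 against HIF1A siRNA and 1.3e-04 against HIF2A siRNA). HIPK2, a nuclear kinase, was at 126, 140.0 and 170.1 CPM with control siRNA and at 233, 247 and 269 CPM in the double knockdown, with log2 fold changes of 0.01 and 0.16 in the single knockdowns, both exceeded by the double one (edgeR adjusted p = 0.0011 and 0.0027). In the double knockdown, JAG1, SDPR and WBP1L exceeded HIF1A siRNA, by 0.89, 1.14 and 0.98, and GNG4, LIPC, ARL6IP1 and RAD51AP1 exceeded HIF2A siRNA, by 1.10, 1.04, 0.81 and 0.89 on the log2 scale. For each of these genes only the comparison named is given here. The plot of the 3 knockdowns shows the 3 patterns of decrease and the increases for 33 genes.

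**Figure D5:**
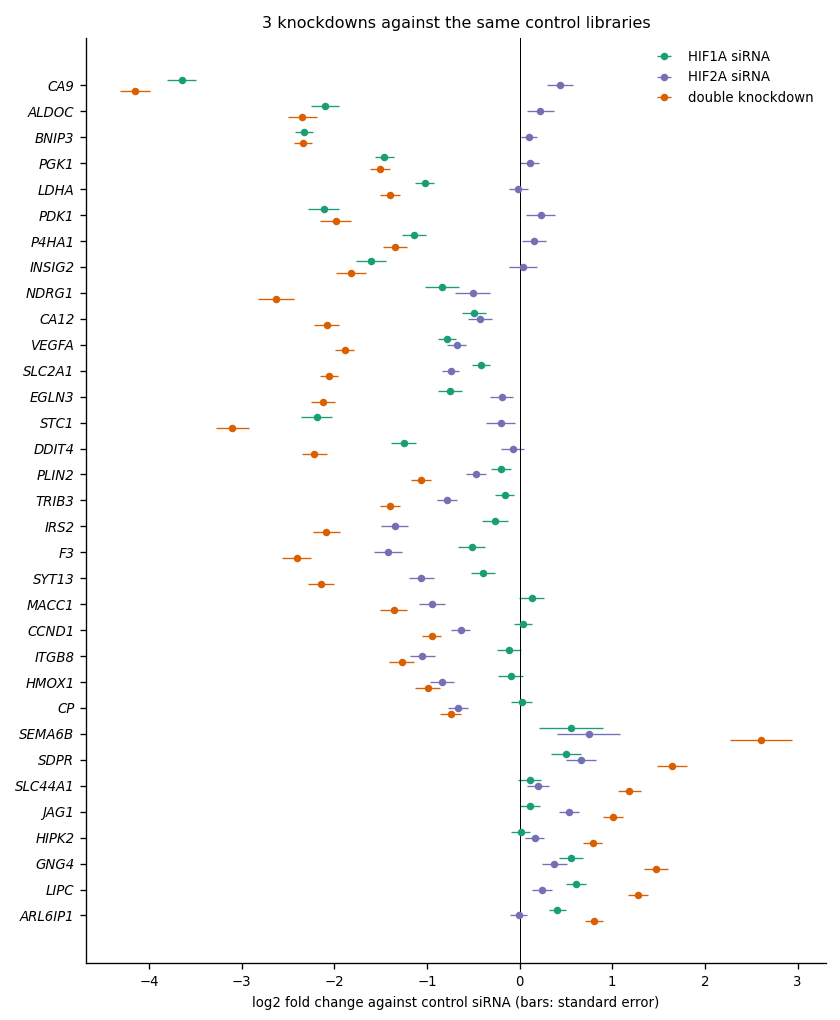
Log2 fold change against control siRNA of 33 genes with HIF1A siRNA (green), HIF2A siRNA (purple) and both (orange); bars are standard errors and the 3 values of a gene share the same 3 control libraries. From CA9 to INSIG2 purple lies near 0 and to the right of the others, from NDRG1 to PLIN2 orange lies left of both, from TRIB3 to CP purple lies left of green, and from SEMA6B to ARL6IP1 orange lies farthest right.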

How the data were processed

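Poly(A) RNA of 12 RCC4 libraries was sequenced from a directional kit. The deposited values were raw counts per gene symbol, which the authors made from hg19 alignments. The submitters' processing notes name Trim Galore 0.3.3, HISAT2, Picard 2.0.1, HTSeq 0.5.4p3 and DESeq2, and the strand setting of the counting is not given in the sources used here, so overlapping antisense genes cannot be told apart. Symbols were used as deposited, and rows that name no gene were left out. Each library was fitted with edgeR 4.0.16 in R 4.3.3 (TMM, filterByExpr, quasi-likelihood test) with terms for condition and replicate number, over all 12 libraries and 13000 genes. The 3 conditions beside the control share 1 estimate of the spread, and p-values were adjusted by Benjamini-Hochberg and called at 0.05. The replicate number was kept as a block because the study's methods pair the conditions by replicate. Deviations of same-numbered control and double knockdown libraries correlated at 0.243, 0.616 and 0.678 for replicates 1, 2 and 3. Pairs of unlike number correlated at -0.642 to 0.193. The highest of these, control replicate 2 with double knockdown replicate 1, was close to the same-numbered pair of replicate 1. Deviations were taken from each group's own mean, so these values are not independent. Libraries of a group differed by more than sampling noise and none was merged. The test was tested on simulated data, where it found 31.4% of genes changed by 0.5, 78.3% by 1 and 97.0% by 2 on the log2 scale in this comparison (12853 genes), with 6.94% of calls on unchanged genes. The changed genes numbered 70, 60 and 67 in that order, a smaller share than was called in the data. These rates can differ with that share, so they may not carry over to the real comparison.

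Genes were named by rule, namely HIF subunits, the 15 largest called changes in each direction with a mean of at least 5 CPM and 1 direction in all pairs, up to 4 called members of each list in each direction by adjusted p (where none was called, the 2 of smallest p), and the 5 smallest adjusted p-values against each single knockdown in each direction. The genes, lists and comparisons were chosen with earlier results of these data known. Promoters came from RefSeq (GRCh38.p14), whose build differs from that of the counts, matched by symbol or synonym. Alternatives were DESeq2 1.42.0 and its size factors, other filters, no replicate block, only the 6 libraries, a GC and length trend removed, other thresholds and leaving out replicates or single libraries. Some genes are not reported here.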

Additional observations from a re-analysis of the deposited data

How the results depend on the processing

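The decreases of EPAS1 and HIF1A kept direction and call in every alternative run, with log2 fold changes of -4.43 to -3.94 and -2.13 to -1.41 when replicates or single libraries were left out. For the 1336 calls against control siRNA, the fit with no replicate block gave 195 (163 lower, 32 higher), the 6 libraries alone 2609 (1440 and 1169), an adjusted p under 0.1 2119 (882 higher) and under 0.01 600 (440 and 160). Increases numbered 780 by DESeq2 and 910 with the GC and length trend removed, and leaving out replicates or libraries gave 302 to 1648 calls, 248 to 1022 lower and 54 to 626 higher. Against HIF1A siRNA, calls numbered 8 with no replicate block (8 lower and 0 higher by edgeR, with 557 genes in all at an unadjusted p under 0.05), 403 by DESeq2 (263 and 140), 656 with 6 libraries (412 and 244), 297 with the trend removed (193 and 104), 88 higher with no filter, and 26 to 209 without 1 replicate or library (22 to 143 and 4 to 66). Against HIF2A siRNA they numbered 90 with no replicate block (86 and 4), 818 by DESeq2 (233 higher), 164 with 6 libraries (149 and 15), 278 higher with the trend removed, and 158 to 466 (147 to 379 and 11 to 90). Over the list members, 64 were lower and 7 higher with no replicate block, and 141 were higher by DESeq2, 250 with 6 libraries, 160 with the trend removed, 158 at 0.1 and 22 at 0.01, with 87 to 227 lower and 12 to 129 higher when replicates were left out. The share of promoters of lower genes was 29.2% for ACGTG alone. The cause of these shifts was not tested.

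Of 229 called genes chosen by the rule, 68 kept the call in every alternative, among them CA9, ALDOC, SLC2A1, VEGFA, NDRG1, SEMA6B, SDPR and JAG1, and 161 lost it in 1 or more: 153 with no replicate block, 124 without replicate 3 and 92 without replicate 1. HIST1H2BK, not called, changed sign without the double knockdown library of replicate 2 (log2 fold changes -0.00685 to 0.345 when libraries were left out, with edgeR adjusted p from 0.5 to 0.99). Small changes are limited by depth and 3 replicates.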
